A study of Homo sapiens with 12 samples.

Results

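Matrix proteases and their inhibitors were followed in a pair of established cell lines from human pancreatic carcinoma, MIA PaCa-2 and PANC-1, sequenced with and without siRNA against RBM3, an RNA-binding protein induced by cold. The set held 10 genes of the 63677 gene rows in the deposited table of counts: MMP1, MMP2, MMP14, MMP15, TIMP1, TIMP2, TIMP3, PLAU, PLAUR and ANPEP. They were taken by name, as the rows whose Ensembl identifier maps to one of these symbols. All 10 had reads, and 9 of them passed the filter on low counts; TIMP3 did not.

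The study's title and design ask which transcripts depend on RBM3 in pancreatic cancer cells. Each line received either a negative control siRNA or a mixture of a pair of siRNAs against RBM3 at 25 nM, giving 4 groups of 3 libraries. All groups shared the rest of the protocol: 72 h of culture, 4.5 h of lipofection in medium without serum, and overnight recovery in full medium. Each line stands for 1 tumour, the medium of each line is not given, and the labels name the RNA both as total and as cytoplasmic. Whether replicates came from separate cultures is not stated, and p-values then measure no more than the spread among these libraries, which may be technical.

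Matrix metalloproteinases are zinc enzymes, secreted or anchored in the membrane, that cut collagens and other matrix proteins and are made as inactive precursors. Tissue inhibitors of metalloproteinases (TIMPs) block them, and TIMP2 also bridges MMP14 to the precursor of MMP2 at the cell surface, where MMP14 starts its activation. Urokinase (PLAU), bound to its receptor PLAUR, converts plasminogen to plasmin, a broad protease that also activates metalloproteinase precursors; in pancreatic carcinoma both systems are known for their part in a collagen-rich stroma and in invasion.

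Promoter sequences are shown for PLAUR, PLAU, MMP14 and MMP15, whose levels separated the same PANC-1 libraries in opposite directions, as described further on. Each is the run of 250 bases before the RefSeq start of the gene in GRCh38.p14, printed in the direction of transcription. Capitals mark matches to TGANTCA, the AP-1 motif, or to GGGCGG, the GC box, read on both strands (CCGCCC is the GC box on the other strand). The PLAUR run is chr19:43670170-43670419 on the minus strand, PLAU chr10:73910882-73911131 on the plus strand, MMP14 chr14:22836335-22836584 on the plus strand and MMP15 chr16:58025504-58025753 on the plus strand.
PLAUR: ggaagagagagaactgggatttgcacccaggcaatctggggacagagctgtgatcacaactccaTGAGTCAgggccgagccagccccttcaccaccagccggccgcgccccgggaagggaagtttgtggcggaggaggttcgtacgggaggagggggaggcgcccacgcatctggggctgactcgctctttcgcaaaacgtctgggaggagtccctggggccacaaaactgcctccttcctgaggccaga
PLAU: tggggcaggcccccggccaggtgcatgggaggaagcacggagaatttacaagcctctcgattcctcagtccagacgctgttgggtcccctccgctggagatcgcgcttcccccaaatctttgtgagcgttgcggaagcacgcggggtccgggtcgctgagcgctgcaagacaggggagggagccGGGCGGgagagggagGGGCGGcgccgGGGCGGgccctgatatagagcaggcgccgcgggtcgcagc
MMP14: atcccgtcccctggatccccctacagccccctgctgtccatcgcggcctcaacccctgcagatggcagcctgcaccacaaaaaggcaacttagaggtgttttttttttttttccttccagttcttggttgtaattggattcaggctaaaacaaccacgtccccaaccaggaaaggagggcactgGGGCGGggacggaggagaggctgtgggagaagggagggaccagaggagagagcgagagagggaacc
MMP15: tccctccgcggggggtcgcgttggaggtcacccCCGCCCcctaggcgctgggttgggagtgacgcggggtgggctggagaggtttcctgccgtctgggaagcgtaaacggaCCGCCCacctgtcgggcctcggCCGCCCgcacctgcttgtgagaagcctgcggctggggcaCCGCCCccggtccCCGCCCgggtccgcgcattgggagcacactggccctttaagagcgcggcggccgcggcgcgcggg
PLAUR, the receptor, held 1 AP-1 match, TGAGTCA, from 186 to 180 bases before the start. It was the only member of the 7 with a RefSeq window to hold one in the 300 bases from 250 before to 50 after the start, and 7.71% of all 35116 such windows did. Within the same 300 bases PLAU held 3 GC boxes, MMP14 held 1 and MMP15 held 5. GC boxes lay in 6 of the 7 members (also ANPEP, TIMP1 and TIMP3) and in 45% of all windows, and TATAAA lay in none of the members and in 11.5% of all windows. PLAU and ANPEP each had 2 windows, of which 1 held no match, and the PLAU window shown is the one with matches. Members were counted by gene, over 9 windows, and the shares by window, so the figures are not like for like. A match describes letters only.

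Total counts ran from 14217185 to 39652502 per library, and 3 counts, the upper limit behind a count of 0, amount to 0.0757 to 0.211 CPM (counts scaled to library size). Levels below are CPM after TMM normalisation, with mean ± SD over 3 libraries, and intervals cover counting error only. The siRNA target RBM3 fell from 244 ± 35.3 to 47.9 ± 12.6 CPM in MIA PaCa-2 and from 476 ± 78.8 to 125 ± 60.9 CPM in PANC-1, with no overlap of libraries in either line. Of 7 carcinoma epithelium markers, 7 reached 1 CPM in PANC-1 and 4 in MIA PaCa-2, where KRT7, EPCAM and CDH1 stayed under 1. Leukocyte markers summed to at most 22.4 CPM, endothelial markers to at most 8.04 and acinar markers to at most 0.485. A list of 9 fibroblast genes summed to 929 to 1890 CPM in MIA PaCa-2 controls and 148 to 248 in PANC-1 controls (162 to 549 with RBM3 siRNA). Collagens made up most of these sums. COL1A2 averaged 1507 CPM in MIA PaCa-2 controls and 0.756 in PANC-1 controls, COL3A1 46.5 and 4.72, COL1A1 0.806 and 163, and THY1 0 and 13.3. In the PANC-1 siRNA group, which includes replicate 3 described below, COL1A2 averaged 147 CPM. FAP, DCN and LUM were under 1 CPM in all groups. The part of this list in the results was not tested.

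PANC-1 libraries did not all resemble each other. RBM3 siRNA replicate 3 held transcripts of genes that mark the other line, called transcripts of the other line below. These were 8 genes that MIA PaCa-2 controls express at 50 CPM or more and PANC-1 controls at less than 0.5. They had a median of 40.2% of their level in MIA PaCa-2 siRNA libraries, against 0% to 0.199% in the other 5 PANC-1 libraries. How they came to be in that library was not tested. Control replicate 1 and RBM3 siRNA replicate 2, which carry different siRNAs, both lay above or both lay below all of control replicates 2 and 4 and siRNA replicate 1 for 52.5% of all tested genes. Counts of called members and some fold changes are therefore given with and without these libraries.

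The levels of most members differed between PANC-1 and MIA PaCa-2 under control siRNA. MMP2, ANPEP and MMP14 were higher in PANC-1, and TIMP1, TIMP2, PLAUR, MMP15 and MMP1 were higher in MIA PaCa-2, while PLAU was not called. That made 8 of 9 tested members past an adjusted p of 0.05 in edgeR's quasi-likelihood test with Benjamini-Hochberg adjustment over all 17862 genes, where 50.8% of all genes passed (26% higher and 24.8% lower in PANC-1). The members' median log2 fold change was -1.65, against 0.00 over all genes. MMP2 and ANPEP, at 3 and 14 reads in the MIA PaCa-2 controls, passed the filter through PANC-1 alone. The members were also chosen with earlier results of these data known, so the count describes them and does not test the set. Without PANC-1 siRNA replicate 3 the count was 8, and without the pair that stood apart it was 7. In RNA from bulk cultures, fewer cells of a type and less RNA per cell cannot be told apart.

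**Figure D1:**
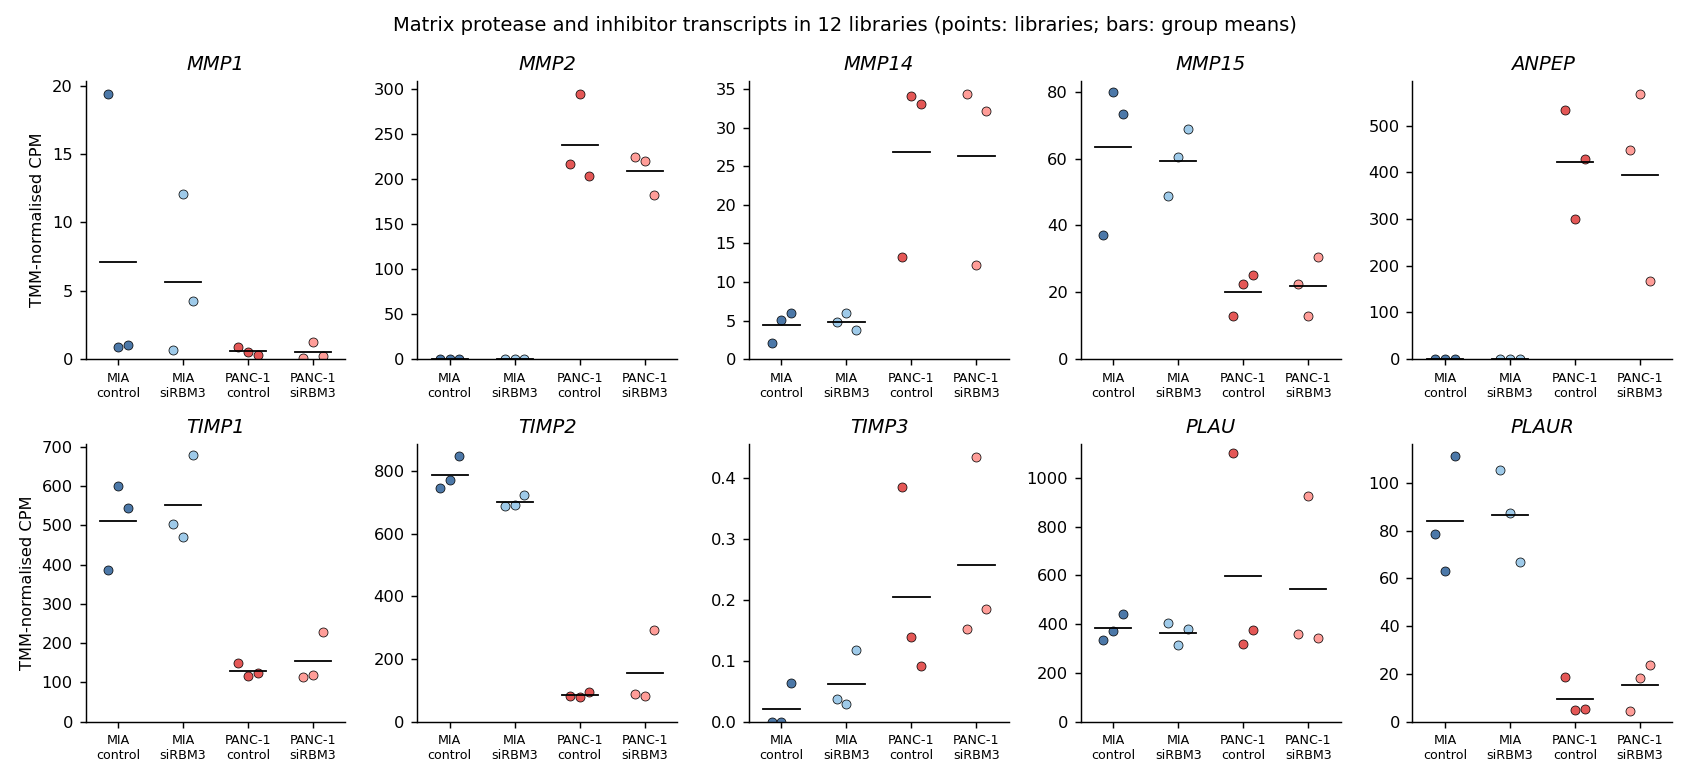
Levels of the 10 genes in each of the 12 libraries, in TMM-normalised CPM on a linear axis from 0 that differs between panels; points are libraries and bars are means of 3. MMP2 and ANPEP lie near 0 in all 6 MIA PaCa-2 libraries, and TIMP2 lies between 689 and 849 CPM there and at or under 293.5 CPM in PANC-1.

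MMP2, gelatinase A, which cuts basement membrane collagen and denatured collagen, was nearly silent in MIA PaCa-2. Control replicates 1, 2 and 4 gave 1, 0 and 2 reads there, and RBM3 siRNA replicates 1, 2 and 5 gave 4, 5 and 0. In PANC-1 controls 1, 2 and 4 it was at 216, 293.7 and 203 CPM, and in siRNA replicates 1, 2 and 3 at 224, 219.9 and 182 CPM. Every PANC-1 library was thus at 182 CPM or more and every MIA PaCa-2 library at 0.150 CPM or less, and no group within a line stood out. Summed over the controls, 3 reads stood against 13697, a depth-corrected ratio of 5613 with a 95% exact binomial interval of 1920.3 to 27221.3. Under RBM3 siRNA the ratio was 1795, from 945 to 3926, on 9 reads against 20376. The adjusted p was 1.16e-08 with control siRNA and 1.40e-08 with RBM3 siRNA (edgeR).

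MMP14, the membrane-type metalloproteinase that activates the MMP2 precursor, was also higher in PANC-1. It was at 2.02, 5.11 and 5.99 CPM in the MIA PaCa-2 controls and at 13.2, 34.1 and 33.1 CPM in the PANC-1 controls, in the order of replicates 1, 2 and 4. The lowest PANC-1 library lay above the highest MIA PaCa-2 library, although PANC-1 control 1 was well below the other controls of its line. The means were 4.37 ± 2.08 and 26.8 ± 11.8 CPM, 6.13-fold higher in PANC-1 (log2 fold change 2.64, SE 0.51, adjusted p = 0.00113, edgeR). Without the pair that stood apart, the log2 fold change was 2.98. With RBM3 siRNA the libraries stood at 4.78, 5.95 and 3.74 CPM in MIA PaCa-2 and 34.5, 12.2 and 32.2 CPM in PANC-1, again apart, with a log2 fold change of 2.44 (SE 0.50, adjusted p = 0.00238, edgeR).

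MMP15, another membrane-anchored metalloproteinase, went the other way. MIA PaCa-2 controls were at 37.2, 79.8 and 73.3 CPM and PANC-1 controls at 12.8, 22.5 and 25.1 CPM. No PANC-1 control reached the lowest MIA PaCa-2 control, and the means of 63.5 ± 23.0 and 20.2 ± 6.48 CPM were 3.15-fold apart (log2 fold change -1.65, SE 0.37, adjusted p = 0.00258, edgeR). Under RBM3 siRNA it measured 48.7, 60.4 and 68.8 CPM in MIA PaCa-2 and 22.5, 12.8 and 30.6 CPM in PANC-1. These too did not overlap (log2 fold change -1.43, SE 0.36, adjusted p = 0.00770, edgeR). The log2 fold change was -1.75 without PANC-1 siRNA replicate 3 and -1.15 without the pair that stood apart.

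MMP1, the interstitial collagenase that opens fibrillar collagen, varied widely within a line. In MIA PaCa-2 it was at 19.4, 0.851 and 1.01 CPM with control siRNA and at 0.639, 12.1 and 4.26 CPM with RBM3 siRNA. PANC-1 controls held 0.856, 0.486 and 0.322 CPM and the siRNA libraries 0.0606, 1.24 and 0.248 CPM. MIA PaCa-2 control 1 alone carried most of its group's level, and the lines overlapped. The log2 fold change of -3.68 (SE 1.37, adjusted p = 0.0396, edgeR) became -0.70 (adjusted p = 0.658) without MIA PaCa-2 control 1, and the call was also lost without any of the 3 PANC-1 controls (adjusted p = 0.0737 to 0.115), without MIA PaCa-2 siRNA replicate 5 (0.0516), without both PANC-1 libraries that stood apart (0.0550) and in limma-voom (0.176). Under RBM3 siRNA it was not called, at -3.46 (SE 1.33, adjusted p = 0.0514, edgeR), but was under 8 alternatives, among them DESeq2 (adjusted p = 0.0335) and edgeR without PANC-1 siRNA replicate 2 (-5.16, adjusted p = 0.0340). Without MIA PaCa-2 siRNA replicate 2 it was -2.22 (adjusted p = 0.223, edgeR).

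TIMP1, an inhibitor of most secreted metalloproteinases, was higher in MIA PaCa-2. The controls of that line were at 386, 599.8 and 545 CPM and those of PANC-1 at 148, 117 and 125 CPM. All MIA PaCa-2 libraries lay far above, with means of 510.1 ± 111 and 130.3 ± 16.1 CPM, a 3.92-fold difference (log2 fold change -1.97, SE 0.28, adjusted p = 0.000129, edgeR). With RBM3 siRNA the values were 503, 469 and 679 CPM against 115, 119 and 228 CPM, the last in the PANC-1 library that held transcripts of the other line. The log2 fold change there was -1.84 (SE 0.27, adjusted p = 0.000248, edgeR) and -2.24 without that library.

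TIMP2, the inhibitor that also takes part in MMP2 activation, was likewise higher in MIA PaCa-2. Libraries stood at 745, 771 and 849 CPM in MIA PaCa-2 controls and 82.3, 78.9 and 95.6 CPM in PANC-1 controls. The 3 libraries of each group lay close together, and the means of 788 ± 53.9 and 85.6 ± 8.81 CPM were 9.21-fold apart (log2 fold change -3.20, SE 0.40, adjusted p = 5.75e-05, edgeR). With RBM3 siRNA it measured 689, 693 and 722 CPM in MIA PaCa-2 and 89.6, 81.7 and 293.5 CPM in PANC-1. Replicate 3 of the PANC-1 siRNA group alone stood high, and the log2 fold change of -2.18 (SE 0.39, adjusted p = 0.000905, edgeR) was -3.04 without it.

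TIMP3, an inhibitor held in the matrix that also acts on ADAM proteases, was barely detected. MIA PaCa-2 controls gave 0, 0 and 1 reads and PANC-1 controls 9, 2 and 2 reads; with RBM3 siRNA there were 1, 1 and 2 reads and 5, 14 and 6 reads. PANC-1 was above MIA PaCa-2 in CPM in each treatment without overlap, on 1 read against 13 in the controls (ratio 16.0, 95% exact binomial interval 2.40 to 679) and 4 against 25 with RBM3 siRNA (ratio 4.96, interval 1.71 to 19.6). An exact two-sided permutation test of 3 against 3 gave p = 0.1 for each, the smallest it allows.

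PLAU, urokinase, was expressed at similar levels in most libraries of both lines. MIA PaCa-2 controls were at 334, 371 and 443 CPM and PANC-1 controls at 1100.5, 318 and 378 CPM. PANC-1 control 1 alone was high, and the other PANC-1 controls fell within or just below the MIA PaCa-2 range. The log2 fold change of 0.65 (SE 0.45, adjusted p = 0.2495, edgeR) became -0.13 without PANC-1 control 1. With RBM3 siRNA, PLAU measured 404, 315 and 379 CPM in MIA PaCa-2 and 362, 924 and 344 CPM in PANC-1, where replicate 2 stood alone. The log2 fold change was 0.57 (SE 0.45, adjusted p = 0.319, edgeR), and -0.05 without that replicate.

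PLAUR, which holds urokinase at the cell surface, was higher in MIA PaCa-2. Its controls were at 78.8, 63.0 and 111.1 CPM there and at 18.6, 4.79 and 5.43 CPM in PANC-1. The groups lay apart, with means of 84.3 ± 24.5 and 9.61 ± 7.80 CPM, 8.77-fold (log2 fold change -3.12, SE 0.61, adjusted p = 0.00124, edgeR). PANC-1 control 1 was the highest of its group, and the log2 fold change was -4.03 without it. With RBM3 siRNA the levels were 105, 87.6 and 66.7 CPM against 4.37, 18.4 and 23.9 CPM. PANC-1 siRNA replicate 1 was the lowest of all 12 libraries, and the lines stayed apart (log2 fold change -2.48, SE 0.59, adjusted p = 0.00569, edgeR). The 23.9 CPM came from siRNA replicate 3, the library with transcripts of the other line, and the log2 fold change was -2.93 without it.

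ANPEP, aminopeptidase N or CD13, which trims peptides at the cell surface, was found almost only in PANC-1 reads. MIA PaCa-2 gave 10, 0 and 4 reads in controls and 5, 15 and 0 with RBM3 siRNA. PANC-1 controls were at 533, 301 and 429.5 CPM and siRNA libraries at 447, 567 and 167 CPM. The lowest PANC-1 value, in the library with transcripts of the other line, was still far above every MIA PaCa-2 library. On 14 reads against 26131 in the controls the depth-corrected ratio was 2295 (95% exact binomial interval 1367 to 4198, adjusted p = 4.32e-07, edgeR), and on 20 against 38450 with RBM3 siRNA it was 1524 (987 to 2495, adjusted p = 4.75e-07).

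With RBM3 siRNA in both lines, 7 of 9 tested members passed between the lines, 3 higher and 4 lower in PANC-1, where 43.6% of all genes passed (24.2% higher and 19.3% lower). These were the members called with control siRNA except MMP1. The medians were -1.43 for the members and -0.00 for all genes. MMP2 and ANPEP again passed the filter through PANC-1 alone, so this count too describes the members and does not test the set. Without PANC-1 siRNA replicate 3, 7 members passed, and without the pair that stood apart, 8 did.

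**Figure D2:**
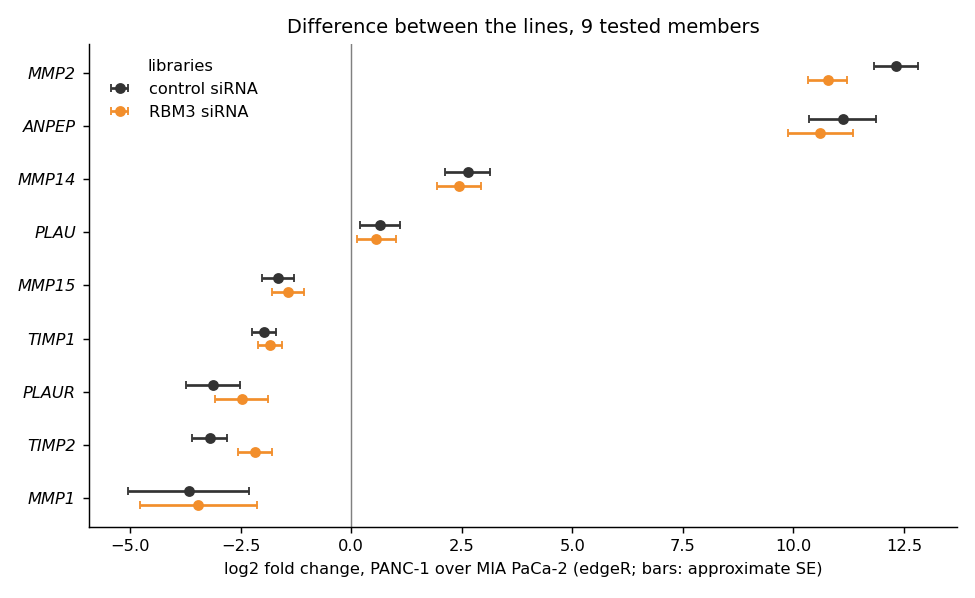
Log2 fold change of PANC-1 over MIA PaCa-2 from edgeR for the 9 tested members, with control siRNA (dark) and with RBM3 siRNA (orange); bars are approximate SEs. MMP2, ANPEP and MMP14 lie right of 0 in both, PLAU lies within 2 SEs of 0, and TIMP2 moves from -3.20 to -2.18.

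Levels of different genes were compared per kilobase of merged exons (CPM per kb). In MIA PaCa-2 controls, TIMP1 led at 331 ± 72.0 CPM per kb, above TIMP2 at 139.9 ± 9.57 and PLAU at 129.7 ± 18.9, which overlapped each other. PLAUR (18.9 ± 5.50), MMP15 (14.4 ± 5.20), MMP1 (3.59 ± 5.40) and MMP14 (0.980 ± 0.467) followed, each overlapping the next, and ANPEP, MMP2 and TIMP3 lay at or under 0.0336 on average. In PANC-1 controls, PLAU (203 ± 147.6 CPM per kb), ANPEP (86.5 ± 23.9) and TIMP1 (84.5 ± 10.4) came first, each overlapping the next. MMP2 came next at 48.2 ± 9.93, above TIMP2 at 15.2 ± 1.56. MMP14 (6.004 ± 2.65), MMP15 (4.56 ± 1.47) and PLAUR (2.16 ± 1.75) overlapped in turn, followed by MMP1 (0.282 ± 0.139) and TIMP3 (0.0446 ± 0.0342). Among controls, the level of MMP2 per kilobase thus exceeded that of TIMP2 in PANC-1, and that of TIMP2 exceeded that of MMP2 in MIA PaCa-2. With RBM3 siRNA, PANC-1 replicates 1 and 2 held MMP2 at 45.5 and 44.6 CPM per kb and TIMP2 at 15.9 and 14.5. Replicate 3, the library with transcripts of the other line, held MMP2 at 36.9 and TIMP2 at 52.1. The 2 genes overlapped in that group through replicate 3 alone.

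Other genes of matrix proteolysis were counted by list, between the lines with control siRNA. Of 23 matrix metalloproteinases, 12 were tested, and 7 were higher and 3 lower in PANC-1, with a median log2 fold change of 1.88. Over all genes, 26% were higher and 24.8% lower, the background for this and the following lists. MMP2, MMP7, MMP9 and MMP16 averaged at or under 0.308 CPM in MIA PaCa-2 controls. Genes as low there can pass the filter through PANC-1 alone, so the count of 7 and the median do not weigh direction. The genes lower in PANC-1 were not as low in that line. MMP16, a membrane-type enzyme, was at 0.308 CPM on average in MIA PaCa-2 against 20.7 in PANC-1 (log2 fold change 6.14, adjusted p = 9.44e-07, edgeR). MMP17, of the lipid-anchored membrane type, was at 8.97 and 34.3 CPM (1.94, adjusted p = 0.000127, edgeR). MMP11, stromelysin-3, was lower in PANC-1, at 28.7 and 3.67 CPM (-2.97, adjusted p = 0.00232, edgeR).

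Among 7 tested of 10 metalloproteinase inhibitors and activators, 2 were higher and 4 lower in PANC-1, with a median of -0.72. RECK, a membrane-anchored inhibitor of metalloproteinases, was higher in PANC-1, at 0.0595 CPM in MIA PaCa-2 against 26.8 in PANC-1 (log2 fold change 8.80, adjusted p = 7.45e-08, edgeR). The proprotein convertase PCSK6 was lower in PANC-1 (26.3 and 7.56 CPM), as was BSG (1009 and 612.5 CPM, -0.72, adjusted p = 0.00871, edgeR), known as an inducer of metalloproteinases. The count of higher genes fell to 1 without MIA PaCa-2 control 2, PANC-1 control 1, PANC-1 control 4 or the pair that stood apart.

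In the plasminogen list, 11 of 13 genes were tested, and 3 were higher and 3 lower in PANC-1, with a median of -0.55. ANXA2 and S100A10, the subunits of a plasminogen-binding complex at the cell surface, were higher in PANC-1 (910 and 1727 CPM, and 323.5 and 491 CPM).

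All 4 tested of 11 membrane serine proteases and Kunitz inhibitors were higher in PANC-1, including the inhibitor SPINT2 (68.1 and 398 CPM) and the protease TMPRSS2 (0.520 and 14.1 CPM). ST14 was at 0.503 and 1.93 CPM and SPINT1 at 0.0587 and 8.30 CPM. Genes as low in MIA PaCa-2 as TMPRSS2, ST14 and SPINT1 can pass the filter through PANC-1 alone, so this count does not weigh direction. PRSS8, which was not tested, went the other way (0.231 and 0.0231 CPM). ADAM and ADAMTS proteases split, with 4 of 11 tested higher and 5 lower: ADAMTS15, a secreted proteoglycan-cutting enzyme, was at 0.102 and 67.9 CPM, ADAM19 at 1.22 and 16.0 CPM, and the sheddase ADAM9 was at 404 and 188.5 CPM. Among 7 tested of 12 cell surface peptidases, ANPEP and 2 others were higher and 2 lower. GGT1, gamma-glutamyltransferase, was at 61.8 and 1.85 CPM, ACE at 11.4 and 1.47 CPM, and carboxypeptidase D (CPD) at 101 and 154 CPM. Among 13 tested of 14 cathepsins and cystatins, 2 were higher and 2 lower: CTSH was at 38.4 and 117 CPM, CTSB at 484 and 296 CPM and CTSV at 34.1 and 21.2 CPM. The higher cathepsins and cystatins numbered 1 without PANC-1 control 4 and 4 without PANC-1 siRNA replicate 3, and the lower ones 1 without MIA PaCa-2 control 2 or 4 or PANC-1 control 1 or 2. Over all lists, 25 of 65 tested genes were higher and 19 lower in PANC-1, beside 26% and 24.8% of all genes. Genes nearly absent from a line can pass the filter through the other line alone. Such genes, at or under 0.308 CPM in the MIA PaCa-2 control mean, included MMP2, MMP7, MMP9, MMP16, RECK, SPINT1 and ANPEP. ADAM33, ADAMTS1, ADAMTS15, CTSS and the gene CPM were as low there, so the ADAM and ADAMTS split does not weigh direction. In PANC-1 controls, SERPINA5 averaged 0.0231 CPM and ADAMTS4 0.490 CPM. The totals over all lists do not weigh direction either. CPD (adjusted p = 0.0305, edgeR) lost its call without control 2 of either line, and CTSV (adjusted p = 0.0289, edgeR) without any 1 MIA PaCa-2 control and without PANC-1 control 1 or 2.

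**Figure D3:**
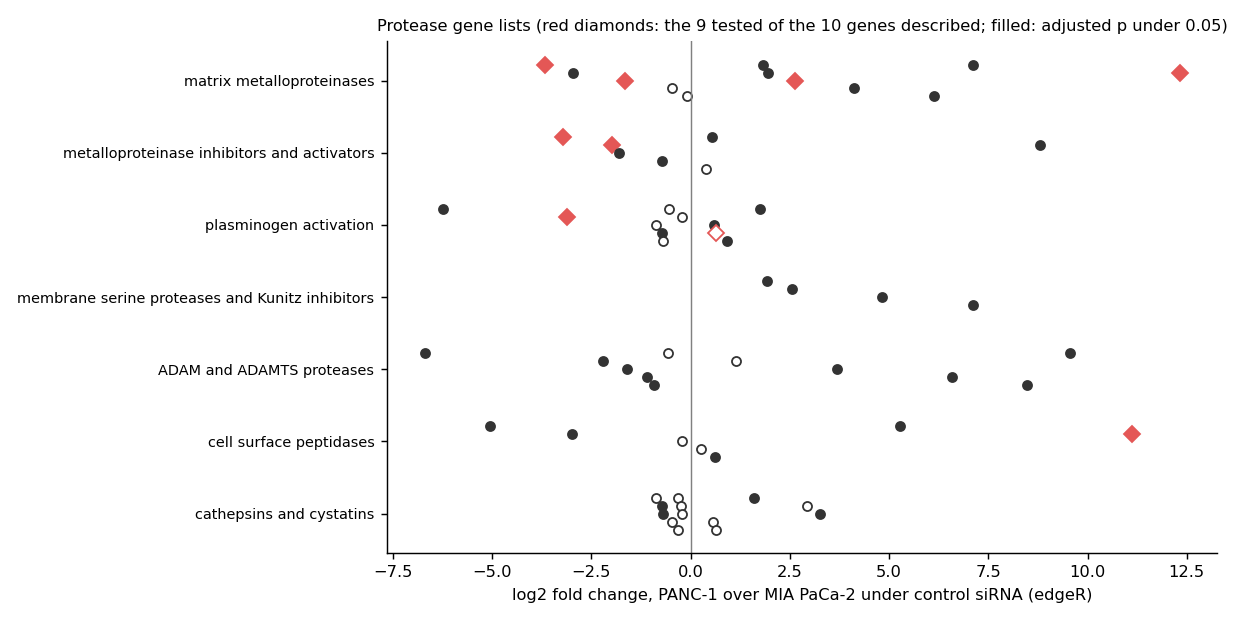
Log2 fold change of PANC-1 over MIA PaCa-2 with control siRNA for each tested gene of 7 lists (rows); diamonds are members, circles other genes, and filled symbols have an adjusted p under 0.05 in edgeR. The 4 tested membrane serine protease and Kunitz inhibitor genes lie to the right of 0, and 9 of 13 cathepsin and cystatin genes are open circles. ST14, SPINT1 and TMPRSS2 were under 1 CPM on average in MIA PaCa-2.

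Within PANC-1, 6 of 9 tested members fell apart along the same libraries. In control 1 and siRNA replicate 2, PLAUR was at 18.6 and 18.4 CPM, against 4.79, 5.43 and 4.37 CPM in control 2, control 4 and siRNA replicate 1. PLAU was at 1100.5 and 924 CPM in the former and 318, 378 and 362 CPM in the latter, and MMP1 and ANPEP were also higher in the former. MMP14 was lower there, at 13.2 and 12.2 CPM against 34.1, 33.1 and 34.5 CPM, as was MMP15, at 12.8 and 12.8 CPM against 22.5, 25.1 and 22.5 CPM. MMP2, TIMP1 and TIMP2 overlapped. The share of 6 of 9 stood beside 52.5% of all tested genes, so it says nothing particular about these members, and the libraries were set apart from the data and not by a label. Both library sets held both siRNAs.

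**Figure D4:**
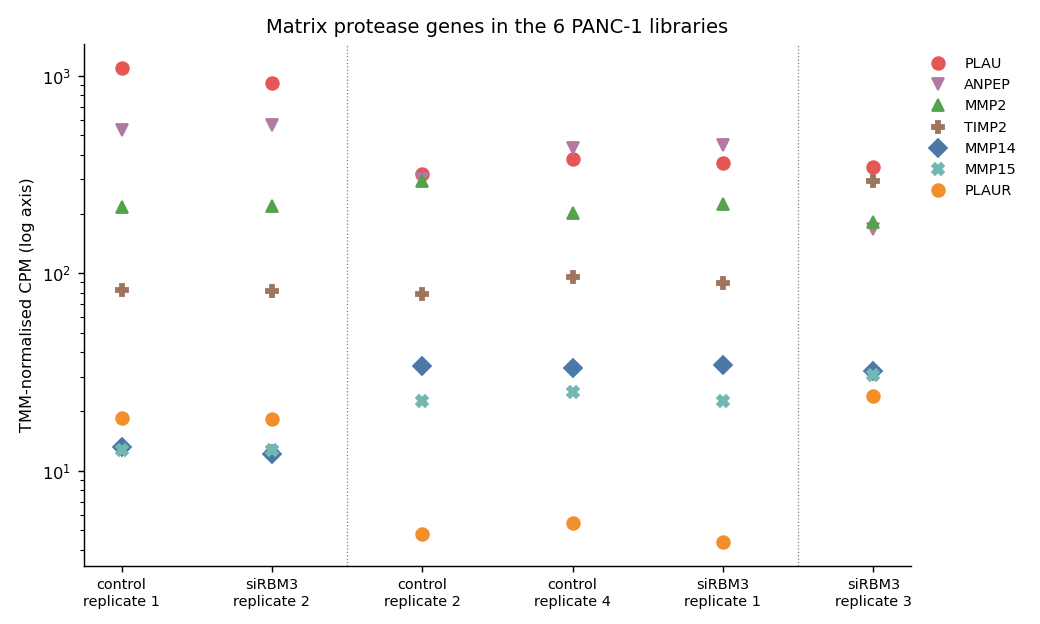
TMM-normalised CPM (log axis) of 7 members in the 6 PANC-1 libraries; dotted lines set off control replicate 1 with siRNA replicate 2, the 3 libraries unlike them, and siRNA replicate 3. PLAUR and PLAU are high and MMP14 and MMP15 low in the former pair, and TIMP2 reaches 293.5 CPM in siRNA replicate 3 alone.

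RBM3 siRNA changed no member past the threshold in either line. In MIA PaCa-2, edgeR called 0 of 9 tested members, where 0.0112% of all genes passed, and 0 had an unadjusted p under 0.05, against 2.94% of all genes. DESeq2 and limma-voom also called 0. MMP2 (3 reads with control siRNA and 9 with RBM3 siRNA) and ANPEP (14 and 20 reads) passed the filter through PANC-1 alone, and changes of theirs were not detectable here. Log2 fold changes of the other 7 ran from -0.34 (MMP1) to 0.17 (MMP14). Their approximate SEs reached from 0.27 (TIMP1) to 1.16 (MMP1), so changes could be missed. Here too, 0 of 9 does not show that the members were unchanged. The 3 siRNA libraries lay wholly beyond the controls for 1 of 9 members, and for 8.04% of all genes. That member was TIMP2, at 689, 693 and 722 CPM with RBM3 siRNA and 745, 771 and 849 CPM with control siRNA. All siRNA libraries were lower, but by little: the ratio of means was 0.890, the exact two-sided permutation p = 0.1, the smallest 3 against 3 can give, and the log2 fold change -0.17 (SE 0.37, adjusted p = 1, edgeR). That SE draws on the spread of TIMP2 over all 12 libraries and not on MIA PaCa-2 alone. It includes PANC-1 siRNA replicate 3, at 293.5 CPM.

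In PANC-1, 0 of 9 tested members passed in edgeR, where 0% of all genes did, and 0 passed in DESeq2 and limma-voom. At an unadjusted p under 0.05 there was 1 member, TIMP2, against 4.12% of all genes, and no member's siRNA libraries lay wholly beyond the controls, against 6.52% of all genes. TIMP2 had a log2 fold change of 0.86 (SE 0.37, unadjusted p = 0.0401, adjusted p = 1.00, edgeR) and of -0.02 without siRNA replicate 3. The other members ran from -0.19 (MMP2) to 0.68 (PLAUR), with a median of -0.03 over all 9 and 0.03 over all genes. The approximate SEs in this comparison reached from 0.26 (MMP2) to 1.39 (MMP1), so that changes, above all of MMP1, could be missed with these libraries. RBM3 itself, which fell from 476 to 125 CPM, was not called either, and the smallest adjusted p of all genes was 0.516 (edgeR). A fall of that size can thus go uncalled, and 0 of 9 does not show that the members were unchanged.

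Replicate 3 of the siRNA group was, of the 6 PANC-1 libraries, the one nearest to the MIA PaCa-2 mean for 6 of 9 tested members: MMP2, MMP15, TIMP1, TIMP2, PLAUR and ANPEP. The share over all tested genes was not computed, so this count cannot be read as particular to the members. TIMP2, TIMP1, PLAUR and MMP15, which MIA PaCa-2 expresses at higher levels, were highest of all PANC-1 libraries in replicate 3, and ANPEP and MMP2 lowest. Without it the log2 fold changes with RBM3 siRNA were 0.22 for PLAUR (but 1.61 without PANC-1 control 1 and 1.46 without the pair that stood apart, neither called), -0.17 for TIMP1, -0.21 for MMP15, 0.25 for ANPEP and -0.11 for MMP2.

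**Figure D5:**
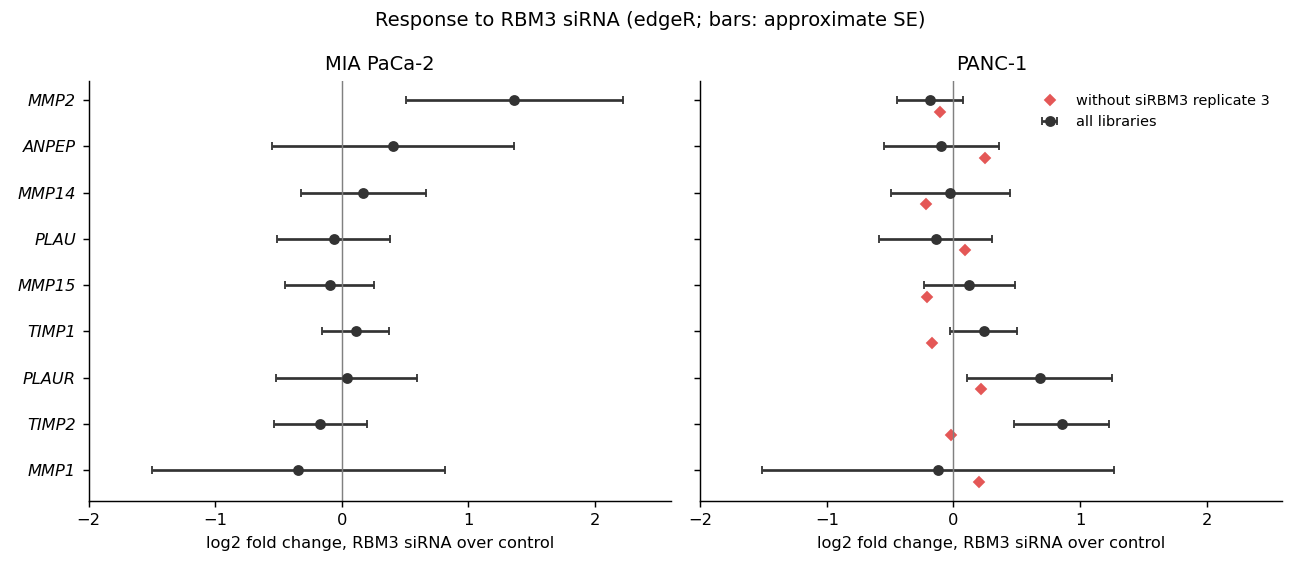
Log2 fold change of RBM3 siRNA over control siRNA from edgeR for the 9 tested members in MIA PaCa-2 (left) and PANC-1 (right); circles are all libraries with approximate SE bars, and diamonds are PANC-1 without siRNA replicate 3. TIMP2 in PANC-1 lies at 0.86 with and -0.02 without that library.

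The response did not pass a test of its difference between the lines for any member. edgeR called 0 of 9, where 0% of all genes passed, and 0 had an unadjusted p under 0.05, against 2.98% of all genes; DESeq2 and limma-voom called 0. Apart from MMP2 and ANPEP, the differences, PANC-1 minus MIA PaCa-2, ran from -0.20 (MMP14) to 1.02 (TIMP2, SE 0.53, adjusted p = 1.00, edgeR). The TIMP2 value was 0.16 without PANC-1 siRNA replicate 3, and the PLAUR value of 0.64 was 1.57 without PANC-1 control 1. The values of -1.55 for MMP2 and -0.50 for ANPEP rest on the few MIA PaCa-2 reads, and that of MMP2 was -2.62 without MIA PaCa-2 control 4. Across all 65 tested genes of the 7 lists, edgeR called 0 in each siRNA comparison, while 2 genes in MIA PaCa-2, 3 genes in PANC-1 and 3 genes for the difference had an unadjusted p under 0.05, beside 2.94%, 4.12% and 2.98% of all genes.

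Genes most like each member across libraries were found by Pearson's r of log2 CPM centred on each line, over 11 libraries without PANC-1 siRNA replicate 3 and 10086 genes at 10 CPM or more. MMP1 and TIMP3 were below that level, which leaves 8 members. These values describe libraries that share depth and the split within PANC-1, and the r within the 6 MIA PaCa-2 libraries is given beside each. PLAUR was closest to PPRC1 (r = 0.994, and 0.99 in MIA PaCa-2) and GJC1 (0.973, and 0.89). PLAU was closest to AKIRIN2 (0.988, and 0.91) and PXDC1 (0.979, and 0.80). MMP14 was closest to CLTCL1 (0.989, and 0.99) and GTF2IRD1 (0.981, and 0.96), and MMP15 to LRP5 (0.978, and 1.00) and DBNDD1 (0.973, and 0.98). TIMP1 went with the ribosomal protein genes RPL10A (0.981, and 0.98) and RPL3 (0.976, and 0.98), and TIMP2 less closely with RGS3 (0.861, and 0.76) and TSPAN9 (0.856, and 0.90). ANPEP was nearest to MTHFD2 (0.927, and 0.87) and SARS1 (0.897, and 0.89), and MMP2 to ALDH6A1 (0.932, and 0.90) and MATCAP2 (0.925, and 0.92). For both members the MIA PaCa-2 values rest on few reads. The r over 11 libraries, and so the choice of these genes, rests on them in part.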

How the data were processed

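The authors deposited raw read counts per Ensembl gene in 1 table of 12 RNA-seq libraries, with no normalisation. Per the labels' protocols, Illumina TruSeq libraries were read at both ends; the submitters' processing notes list STAR 2.5.2a, featureCounts, Subread and Picard, with hg19/GRCh37. The annotation release, strand setting and treatment of duplicates were not given in the sources used here, so overlapping genes and antisense partners may share reads that cannot be told apart. A name table matched 52181 of 63677 rows and gave 39699 a symbol.

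Counts were tested with edgeR 4.0.16 (R 4.3.3) in 1 model of the 4 group means over all 12 libraries (8 residual degrees of freedom), using the quasi-likelihood F-test, two-sided, and TMM. Its filterByExpr filter (minimum count 10) kept 17862 genes. Benjamini-Hochberg adjustment ran over all of these, with a threshold of 0.05. SEs are approximate: the size of the log2 fold change over the root of its F statistic. The scripts were tested on simulated data. Ratios of read sums were scaled by normalised library size, with exact binomial intervals at 95%. Exon lengths came from GENCODE on GRCh38 and served only for levels per kilobase; promoters came from RefSeq on GRCh38.p14.

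The members and lists were chosen with earlier results of these data known. Named from each list were at most 3 other genes at 10 CPM or more in a group mean with the smallest p between the lines under control siRNA, and for each member the 2 genes most like it; 1 gene so chosen is not reported here. Alternatives were DESeq2 1.42.0, limma-voom (limma 3.58.1), other size factors, other filters, only the groups compared, a replicate block, each library left out in turn and, chosen after seeing the data, PANC-1 control 1 and siRNA replicate 2 left out together. Replicates of a group differed by more than sampling noise, with a chi-square per degree of freedom from 11.7 to 184.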

Additional observations from a re-analysis of the deposited data

How the results depend on the processing

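Of 376 recomputed fold changes of members between the lines, 356 kept direction and side of the threshold, 8 lost and 8 gained the call (each of them MMP1) and 4 changed sign (each of them PLAU). Members called between the lines numbered 7 to 9 with control siRNA and 7 to 8 with RBM3 siRNA under the alternatives run, and 0 in each siRNA comparison. Of 336 recomputed list counts, 13 moved by over 1.5 times; beside those given above, DESeq2 called 1 cell surface peptidase lower in PANC-1, and without a filter 1 membrane serine protease or Kunitz inhibitor was lower and 4 cathepsins and cystatins higher. Of 553 recomputed siRNA responses, 57 changed sign, and the cause was not tested. With 1 library left out, PLAU between the lines ran from -0.13 to 0.95 with control siRNA and from -0.05 to 0.82 with RBM3 siRNA. The siRNA response that changed sign ran in MIA PaCa-2 from -1.58 to 2.62 for MMP1, -0.18 to 0.48 for MMP14, -0.36 to 0.10 for MMP15, -0.07 to 0.23 for TIMP1, -0.15 to 0.05 for PLAU, -0.14 to 0.28 for PLAUR and -0.70 to 0.94 for ANPEP. In PANC-1 it ran from -1.85 to 0.41 for MMP1, -0.36 to 0.30 for MMP14, -0.21 to 0.39 for MMP15, -0.17 to 0.42 for TIMP1, -0.02 to 1.16 for TIMP2, -0.78 to 0.64 for PLAU and -0.48 to 0.25 for ANPEP. The difference of the responses ran from -2.74 to 1.46 for MMP1, -0.54 to 0.15 for MMP14, -0.11 to 0.48 for MMP15, -0.28 to 0.32 for TIMP1, -0.71 to 0.71 for PLAU and -1.04 to 0.61 for ANPEP. Without the PANC-1 pair, PLAU was -0.13 and -0.04 between the lines, 0.02 for the response in PANC-1 and 0.09 for the difference, and MMP1 was -0.98 for the difference. In limma-voom the MMP1 difference was -0.83 and the MMP15 response in MIA PaCa-2 0.02, and without a filter the MMP14 response in PANC-1 was 0.01.

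The labels do not say what a replicate number shares. Over 11044 genes, deviations of same-numbered libraries from their group means correlated between -0.533 and 0.22. In PANC-1 these deviations also hold the split within the line and siRNA replicate 3. They therefore cannot decide whether a number marks a shared batch. With the number as a block, 7 members were called between the lines with either siRNA (MMP1 was not, at -3.51 with adjusted p = 0.0859, edgeR, for control siRNA) and 0 in the siRNA comparisons. CPD (adjusted p = 0.0553) and CTSV (adjusted p = 0.0541, edgeR) lost their calls. With the block, responses changed sign to -0.05 for TIMP1 in MIA PaCa-2, and to 0.21 for MMP14, -0.15 for TIMP1, 0.15 for PLAU and 0.34 for ANPEP in PANC-1, and the difference to -0.10 for TIMP1 and 0.34 for PLAU. Depth limits MMP2 and ANPEP in MIA PaCa-2, MMP1 in PANC-1 and TIMP3 in both lines, where few reads were counted.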
